A study of Mus musculus with 4 samples.

Results

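Broad HTATSF1 peaks are single called peaks, at least 1000 bp wide, from chromatin precipitated with an antibody to HTATSF1. The signal along them was not examined. They were chosen by width and recurrence: a replicate 1 peak of 1000 bp or more with at least 1 bp in common with a peak of replicate 2. Chromosomes 8, 11 and X were left out, as was chromosome 7 before 36 Mb. This gave 192 members. They are part of 15386 replicate 1 peaks on the same chromosomes and of 19489 replicate 1 peaks in all. The members were set beside 6700 shared peaks under 1000 bp from the same chromosomes, called narrow shared peaks here.

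HTATSF1 is an RNA-binding protein of the nucleus, first described as a cofactor of the HIV Tat protein and known to associate with the splicing machinery and with transcription. In chromatin immunoprecipitation followed by sequencing (ChIP-seq), a protein of this kind can be crosslinked to DNA through RNA or through other proteins. The width of a peak reflects the fragment length and the call as well as the stretch of chromatin that is occupied. Proteins that sit at 1 sequence tend to give narrow peaks, and proteins that travel along genes or lie over repeated units tend to give wider ones.

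The cells were mouse embryonic stem cells from tatsf1 flox/flox CreERT2 mice, grown on fibroblast feeders and left untreated. The allele was therefore floxed, and no treatment to induce Cre is given in the labels. Chromatin was precipitated with a rabbit antibody to mouse HTATSF1 in 2 libraries, and 2 input libraries without antibody were also made. The input libraries were not analysed here, and no list from cells without HTATSF1 was compared. Feeder chromatin may be in every library, and the labels do not say whether the replicates are separate cultures.

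Each ChIP library had its own peak list in mm9 coordinates. The lists held 15386 and 11111 peaks on the chromosomes used, with a median width of 392 bp in replicate 1 and 280 bp in replicate 2. The sequencing depth behind either list is unknown. Each peak has a score from the authors' peak caller whose scale is not stated. It was read as a percentile, its rank as a percentage of the same full list, so 99 is near the top. Tied scores share their average rank. With 2 libraries of 1 group, no test between samples can be made. Values are given with exact 95% binomial intervals, which cover counting error only and treat peaks as independent. No interval was adjusted for the number of comparisons. Positions are those of mm9 and count from 1. Gene names at the regions, and their sequences, are not given, since no annotation or genome of mm9 was used here.

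Most broad regions came back in the second immunoprecipitation. Of 215 replicate 1 peaks of 1000 bp or more, 192 (89.3%, interval 84.4 to 93.1%) overlapped a replicate 2 peak. Of 15171 narrower ones, 6700 did (44.2%, 43.4 to 45.0%), and over all replicate 1 peaks of these chromosomes the share was 44.8%. The share went up with each step in width, from 13.8% under 200 bp and 53.9% from 400 to below 600 bp to 80.1% from 800 to below 1000 bp. It was 87.9% from 1000 to below 1200 bp and 93.1% above that. The interval of the widest class, 83.3 to 98.1%, covered the 87.9% of the class before it.

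**Figure D1:**
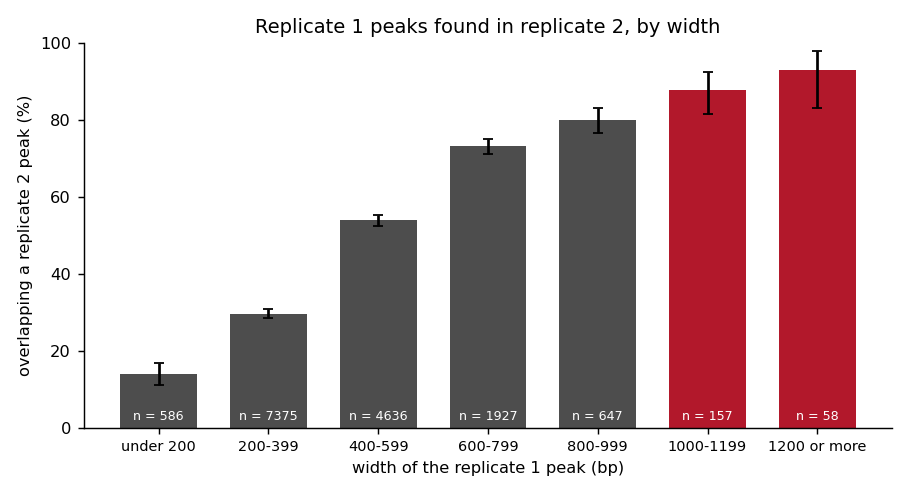
Percentage of replicate 1 peaks (y axis) that overlap a replicate 2 peak by at least 1 bp, by width of the replicate 1 peak in bp (x axis). Bars are percentages, error bars exact 95% binomial intervals, n the peaks in a class, and red marks 1000 bp or more: the bars climb from 13.8% to 93.1%.

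A longer peak has more room to be overlapped, and wide peaks also had high scores. Among peaks in the upper 10% of replicate 1 scores, 166 of 183 broad peaks (90.7%, 85.5 to 94.5%) and 1092 of 1275 narrow peaks (85.6%, 83.6 to 87.5%) were shared. That difference was 5.06 percentage points, with an interval from -0.435 to 9.37. Within this upper 10%, the order was the other way round for the exact centre of the peak. There, 113 of the 183 broad midpoints (61.7%, 54.3 to 68.8%) lay inside a replicate 2 peak, against 945 of the 1275 narrow ones (74.1%, 71.6 to 76.5%). Over peaks of all scores it was not, with 61.4% of broad and 35.0% of narrow midpoints inside a replicate 2 peak.

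The members were mostly just past the width limit. Their widths ran from 1000 to 4057 bp with a median of 1109 bp, and 93 of them were under 1100 bp. A further 45 measured 1100 to below 1200 bp, 42 measured 1200 to below 1500 bp, and 12 measured 1500 bp or more. The limit falls in an unbroken range of widths. The 3 narrowest members, chr4:131429101-131430100, chr4:135411441-135412440 and chr4:147412467-147413467, were 1000, 1000 and 1001 bp wide, at replicate 1 percentiles of 97.6, 96.7 and 86.0. On the other side of the limit lay 3 shared peaks of 999 bp, chr1:55187568-55188566, chr4:129012331-129013329 and chr10:79630179-79631177. Their replicate 1 percentiles were 99.8, 98.5 and 63.6, so the scores on both sides of the limit overlapped.

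Members ranked high in the list that chose them. The median replicate 1 percentile was 97.3 (quartiles 93.6 and 98.8), against 66.9 (41.9 and 84.6) for narrow shared peaks. This is a description, since width and score come from the same library and went together there. A high score was not a requirement, however, and the lowest-ranked member, chr2:91366653-91367681, stood at percentile 67.0. Within the members, width said little about rank: the Spearman correlation of width with replicate 1 percentile was 0.19 over 192 members, compared with 0.77 over the 6700 narrow shared peaks. Both values come from 1 library, and the members' widths span a narrower range.

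The score in replicate 2 was not part of the choice. Each member was paired with its highest-scored replicate 2 peak, and the median percentile of these partners was 84.6 (quartiles 62.6 and 94.5). For narrow shared peaks it was 63.4 (38.8 and 82.8), a difference of 21.2 points with an interval from 16.8 to 24.9. Partners in the upper 10% of replicate 2 scores were found for 71 members (37.0%, 30.1 to 44.2%), against 15.3% of all shared peaks of these chromosomes. Partners in the lower 50% were found for 31 members (16.1%), against 35.4% of narrow shared peaks. In 158 of the 192 members (82.3%) the rank in replicate 2 was lower than in replicate 1, as it was in 53.6% of all shared peaks. Members were chosen in replicate 1 and had a median percentile of 97.3 there, so a lower rank in replicate 2 was likely from the start.

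Among peaks of like replicate 1 score, this gap in replicate 2 rank was small or turned round in the parts of the list that hold most members. The shared peaks were cut by replicate 1 score into 10 equal parts. The highest part, 690 peaks with scores of at least 250.12, held 137 of the 192 members. There the median replicate 2 percentile was 85.5 for members and 89.1 for the 553 narrow peaks, a difference of -3.64 points (interval -8.25 to 0.610). In the next part it was 81.3 for 36 members and 77.6 for 653 narrow peaks, a difference of 3.66 (-10.1 to 13.7). The part after that gave 74.98 for 12 members and 70.4 for 677 narrow peaks. Lower parts held few members. In part 7 the medians were 86.2 for 4 members and 65.2 for 685 narrow peaks, a difference of 20.99 (-24.7 to 31.8). In part 6 they were 80.98 for 2 members and 65.1 for narrow peaks, and in part 5 the single member stood at 53.2 against 59.3. The parts below held no members. Within the highest part, the rank in replicate 2 was lower than in replicate 1 for 123 of 137 members (89.8%, 83.4 to 94.3%) and 462 of 553 narrow peaks (83.5%, 80.2 to 86.5%). Members started higher there, at a median replicate 1 percentile of 98.4 against 97.0, which leaves less room for a higher rank. Partners in the upper 10% of replicate 2 scores were found there for 39.4% (31.2 to 48.1%) of members and 47.9% (43.7 to 52.2%) of narrow peaks.

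**Figure D2:**
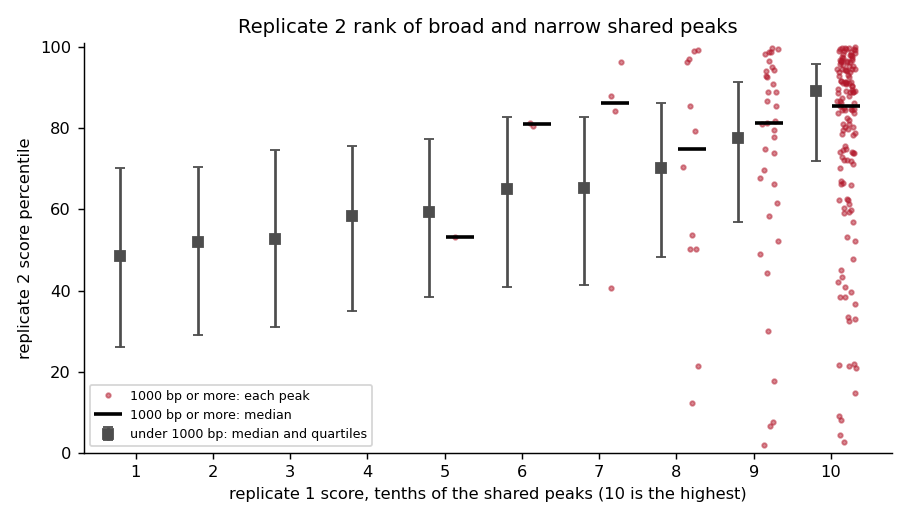
Replicate 2 score percentile of the partner (y axis) against replicate 1 score in 10 equal parts of the shared peaks (x axis, 10 the highest). Grey squares and bars are the median and quartiles of peaks under 1000 bp, red points are the single members and black dashes their medians: in part 10 the member median of 85.5 lies below the narrow median of 89.1.

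Breadth itself carried over to replicate 2 only in part. The widest replicate 2 partner of a member had a median width of 472 bp (quartiles 357.75 and 627 bp), against 342 bp (260 and 447 bp) for narrow shared peaks. In the highest part by replicate 1 score, the medians were 492 and 486 bp, a difference of 6 bp with an interval from -33.1 to 72.7 bp. Just 16 replicate 2 peaks on these chromosomes measured 1000 bp or more (0.144% of the list, where replicate 1 had 1.40%). All 16 overlapped a replicate 1 peak, and 8 of them overlapped a member. The other 8 lay over replicate 1 peaks whose widest measured 513 to 993 bp. So 8 of 192 members (4.17%) were broad by the same limit in both lists. The median replicate 2 peak was narrower, and a limit that keeps the same 1.40% of replicate 2 peaks lies at 723 bp. A partner at least that wide was found for 30 members (15.6%, 10.8 to 21.5%), against 2.58% of all shared peaks of these chromosomes. In the highest part by score the shares were 15.3% (9.75 to 22.5%) of members and 8.50% (6.31 to 11.1%) of narrow peaks.

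In most members the replicate 2 peaks lay inside the borders of the replicate 1 peak. In 143 members (74.5%, 67.7 to 80.5%) every partner lay wholly within the replicate 1 peak, in 42 a partner ran past 1 end, and in 7 partners ran past both. For narrow shared peaks the first of these shares was 40.5%, and for all shared peaks 41.5%. In the highest part by score the shares were 75.2% (67.1 to 82.2%) and 62.2% (58.02 to 66.3%). Members were also wider there, with a median of 1111 bp against 770 bp for narrow peaks. A wider peak holds its partners inside more readily, and coverage is divided by that width, so neither measure is free of the choice by width. Replicate 2 covered a median of 49.8% of a member (quartiles 37.2 and 69.3%) and of 64.7% of a narrow shared peak, and in that highest part of 50.05% and 67.6%. Over all members, 120.2 of 225.7 kb were covered. Coverage went with the replicate 2 rank: the 95 members covered by 50% or more had a median replicate 2 percentile of 91.4, and the other 97 had 72.2. Coverage is built from replicate 2 widths, and the width of the widest partner went with that percentile (Spearman 0.75). The correlation of replicate 2 percentile with coverage was 0.61 for members and 0.42 for narrow shared peaks, so it was not particular to members. The midpoint of the highest-scored partner lay a median of 174 bp from that of the member (quartiles 90 and 301.5 bp), which is 31.0% of the way from its centre to its edge. For narrow shared peaks that relative distance was 32.0%. Among peaks of the highest part by score it was 30.5% (interval 26.3 to 38.1%) for members and 20.5% (17.8 to 23.7%) for narrow peaks.

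**Figure D3:**
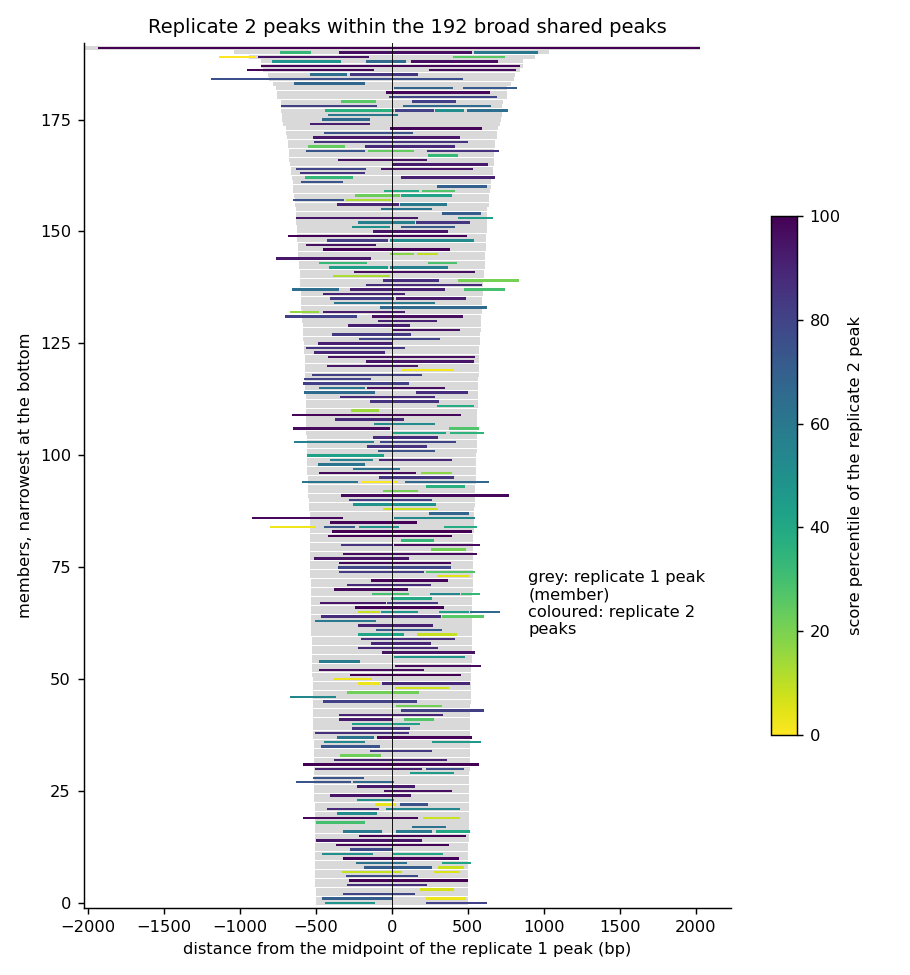
Each of the 192 members is a grey bar, ordered by width with the narrowest at the bottom (y axis), and its replicate 2 peaks are coloured bars placed by distance in bp from the member's midpoint (x axis); colour is the replicate 2 score percentile, dark for high. Coloured bars cover a median of 49.8% of a member and are broken into 2 or more pieces in 62 members; the top bar, 4057 bp wide, is covered almost end to end.

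Members often lay over several replicate 2 peaks. A single partner was found for 130 members, 2 for 51, 3 for 8 and 4 for 3. Thus 62 members (32.3%, 25.7 to 39.4%) spanned 2 or more, against 6.88% of all shared peaks on these chromosomes and 6.15% (5.59 to 6.75%) of the narrow ones. A wider peak has more room for this. Per kb of peak, members held 1.19 replicate 2 peaks and narrow shared peaks 2.12, a value that starts from at least 1 partner per peak and so falls with width. Among the members themselves, 26.9% of those under 1100 bp, 26.7% of those from 1100 to below 1200 bp and 45.2% of those from 1200 to below 1500 bp spanned 2 or more. Below the limit the share also climbed, from 11.1% of shared peaks of 600 to below 800 bp to 16.4% of those of 800 to below 1000 bp. In the highest part by score, members and narrow peaks did not differ clearly in median replicate 2 rank or median partner width. The shares spanning 2 or more there were 34.3% (26.4 to 42.9%) and 9.76% (7.42 to 12.5%). The replicate 1 widths still differed, with medians of 1111 and 770 bp, so this comparison is not matched for room.

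Partners of 1 member can lie only a short way apart, since all of them overlap it. In the 62 members with 2 or more partners, the longest gap between neighbouring partners had a median of 68.5 bp (quartiles 19 and 183.5 bp). It never exceeded 558 bp. In the 412 narrow shared peaks with 2 or more partners the median was 49 bp (quartiles 18 and 109.25 bp). Members with split partners had a median width of 1128 bp and those with a single partner 1093 bp. Replicate 2 covered a median of 67.0% of the split members and 43.9% of the others, where coverage adds up over the partners and so goes up with their number. The 2 kinds had median replicate 2 percentiles of 84.5 and 84.7 and median replicate 1 percentiles of 97.3 in both. The reverse pattern, a partner that also reached another replicate 1 peak, occurred in 5 members (2.60%), in 8.33% of narrow shared peaks and in 8.17% of all shared peaks. In the highest part by score it occurred in 5 of 137 members (3.65%, 1.20 to 8.31%) and in 19 of 553 narrow peaks (3.44%, 2.08 to 5.31%).

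As counted above, 3 members overlapped 4 replicate 2 peaks each. At chr10:39451092-39452544, 1453 bp wide and at replicate 1 percentile 99.9, the pieces were 452, 259, 190 and 267 bp wide with percentiles of 36.4, 80.4, 51.2 and 64.3. At chr2:119303214-119304292, 1079 bp wide and at percentile 99.5, they were 304, 205, 261 and 221 bp wide with percentiles of 2.68, 72.9, 49.4 and 38.4. At chr17:34168039-34169099, 1061 bp wide and at percentile 97.4, they were 149, 240, 196 and 196 bp wide with percentiles of 8.03, 48.3, 44.0 and 66.0. In each case a region near the top of replicate 1 overlapped a row of small replicate 2 peaks, none of them in the upper 10% by score. Not every piece lay inside its member. The first on chromosome 2, chr2:119302952-119303255, lay mostly before the start of the member. The last and highest-scored on chromosome 17, chr17:34169086-34169281, lay mostly past its end.

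The widest members differed in how replicate 2 covered them. Of the 12 members of 1500 bp or more, 6 had a single replicate 2 partner and the other 6 had several. The widest, chr17:39979842-39983898, measured 4057 bp and was matched by 1 replicate 2 peak of 3958 bp, the widest of that list, which covered 97.6% of it with midpoints 47.5 bp apart. Its score was 202.6 in replicate 1 (percentile 89.6) and 508.57 in replicate 2 (percentile 99.98). The fifth widest, chr6:3132470-3134192, was covered in the same way: 1723 bp wide, matched by 1 peak of 1706 bp that covered 99.01% of it, at percentiles of 88.0 and 99.04. The other 4 single-partner members of 1500 bp or more were covered by 29.9%, 45.3%, 46.8% and 79.2%, so 2 of the 6 were covered over more than 90%. Those 2 stood lower in replicate 1 than the lower quartile of members (93.6) and near the top of replicate 2.

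These 2 regions were also far from other replicate 2 peaks. The nearest one that did not overlap them was 903 kb away on chromosome 6 and 735 kb away on chromosome 17, where the next longest distance among members was 231 kb and the median 22.9 kb. In replicate 1 the region on chromosome 6 had no other peak within 314 kb. The one on chromosome 17 had a neighbour 205 bp away, chr17:39984104-39985848, itself 1745 bp wide. That neighbour had a score of 63.3 (percentile 23.9), by far the lowest of the broad peaks with no overlap in replicate 2. Whether either region, or the neighbour, lies over repeated sequence was not tested.

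The other 3 of the 5 widest were split in replicate 2 and ranked higher in replicate 1. At chr5:31189738-31191813, 2076 bp wide, replicate 1 percentile 99.8, the replicate 2 peaks measured 202, 872 and 421 bp with percentiles of 32.9, 96.6 and 59.9. At chr17:27691948-27693828, 1881 bp wide, percentile 99.94, they measured 232, 726 and 339 bp with percentiles of 0.106, 95.6 and 25.8. At chr4:133368910-133370634, 1725 bp wide, percentile 99.98, they measured 455, 266 and 569 bp with percentiles of 47.4, 65.7 and 96.7. The last of these had the highest replicate 1 score of all members, 678.01. Each overlapped 1 strong replicate 2 peak and weaker ones, unlike the rows of small peaks described above. The 232 bp peak, chr17:27691755-27691986, lay mostly before the start of its member.

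The members with the highest rank over both lists were mostly undivided and of ordinary width for members. The 12 with the highest mean percentile were 1005 to 1248 bp wide, 11 of them had a single partner, and none was among the 5 widest. Over all 192 members, 67.7% had a single partner and the width quartiles were 1039 and 1226.5 bp. The Spearman correlation of width with replicate 2 percentile was 0.12 over the members. The first was chr5:149995453-149996500, with scores of 538.65 in replicate 1 and 400.16 in replicate 2 (percentiles 99.9 and 99.9). It was followed by chr2:164736476-164737553 (419.31 and 519.32), the member with the highest replicate 2 score, and chr6:86421990-86423066 (418.4 and 334.63). In chr3:95021079-95022103 (391.1 and 390.46) the replicate 2 peak, 1161 bp wide, enclosed the whole member, with midpoints 4 bp apart.

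The rest of the 12 lay on chromosomes 1, 4, 7, 9 and 17. Chromosome 9 held chr9:64808051-64809062 (scores 346.89 and 434.38), chr9:102528226-102529236 (427.26 and 268.29) and chr9:72509450-72510479 (345.05 and 272.88), the last of which spanned 2 replicate 2 peaks. Chromosome 17 held chr17:27702080-27703147 (509.2 and 272.42) and chr17:80606141-80607201 (338.2 and 304.32). The others were chr4:45543247-45544251 (352.94 and 339.89), chr7:80762724-80763971 (325.89 and 319.4) and chr1:63223014-63224086 (329.76 and 252.22). Replicate 2 covered at least 47.3% of each of the 12, and the midpoints of the paired peaks were 4 to 216.5 bp apart. In 9 of the 12 the percentile was higher in replicate 2 than in replicate 1, against 34 of all 192 members, but the 12 were picked on both ranks.

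At the other end, some broad regions were barely called in replicate 2. The 3 members with the lowest replicate 2 percentiles were chr17:29626901-29628043 (score 50.5, percentile 1.76), chr17:36033796-36034837 (50.75, 2.68) and chr3:37318263-37319331 (51.25, 4.33). The lowest score in that list is 50, so they sat at the edge of the call. Their replicate 1 percentiles were 93.3, 95.6 and 97.6. Replicate 2 covered 30.2%, 24.7% and 19.6% of them, with single peaks of 345, 257 and 209 bp. The region on chromosome 3 had no other peak of either list within 219 kb. Over the members as a whole, the ranks in both immunoprecipitations were weakly related, with a Spearman correlation of 0.14 across 192 peaks, where the rule kept replicate 1 ranks in a narrow range.

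Broad peaks with no overlap in replicate 2 numbered 23. Their median width was 1106 bp and their median replicate 1 percentile 96.5, close to the 1109 bp and 97.3 of the members. Apart from the low-scored neighbour on chromosome 17, the other 22 were at percentile 84.5 or above, and 17 of the 23 were in the upper 10% of replicate 1 scores. The nearest replicate 2 peak was a median of 10.2 kb away, under 1 kb in 2 cases and over 40 kb in 7. The highest-scored of them, chosen after its values were seen, was chr10:120912816-120914037, 1222 bp wide, at a score of 394.04, with 30.4 kb to the closest peak of replicate 2.

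Fewer members than narrow shared peaks had another replicate 1 peak close by. The gap from edge to edge to the nearest other replicate 1 peak had a median of 15.5 kb (quartiles 4.01 and 37.6 kb). For narrow shared peaks it was 9.84 kb (0.827 and 34.6 kb). The intervals of these medians overlapped, at 9.93 to 20.5 kb and 9.19 to 10.4 kb. Long gaps were not more common: over 100 kb for 12 members (6.25%, 3.27 to 10.7%) and for 8.60% (7.94 to 9.29%) of narrow shared peaks. A neighbour under 1 kb away was found for 28 members (14.6%, 9.91 to 20.4%), against 25.8% of all shared peaks of these chromosomes and 26.1% (25.04 to 27.2%) of the narrow ones. Under 10 kb the shares were 42.7% and 50.3%. Replicate 2 peaks that did not overlap the region itself lay under 1 kb away from 10 members (5.21%, 2.53 to 9.37%) and from 13.3% (12.5 to 14.2%) of narrow shared peaks. A wider region overlaps close replicate 2 peaks that would otherwise count as neighbours. In the highest part by replicate 1 score these shares were 4.38% (1.62 to 9.29%) and 8.14% (6.00 to 10.7%).

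The shares of replicate 1 neighbours were close in the highest part by replicate 1 score and further apart below it. In that part, 26 of 137 members (18.98%, 12.8 to 26.6%) and 106 of 553 narrow peaks (19.2%, 15.97 to 22.7%) had a replicate 1 neighbour under 1 kb away. The difference was -0.190 percentage points, with an interval from -7.32 to 8.04. Below that part, 2 of 55 members (3.64%, 0.443 to 12.5%) had such a neighbour, against 1642 of 6147 narrow peaks (26.7%, 25.6 to 27.8%). Scores are not matched in this comparison. Its narrow peaks include parts 1 to 4, which held no members and had shares of 28.3 to 32.2%. In part 9 the shares were 5.56% of 36 members and 21.1% of 653 narrow peaks, and in part 8 they were 0% of 12 and 22.6% of 677. The caller can give 1 wide peak or several narrow ones over the same stretch. When replicate 1 peaks under 1 kb apart were joined first, 911 shared regions reached 1000 bp.

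**Figure D4:**
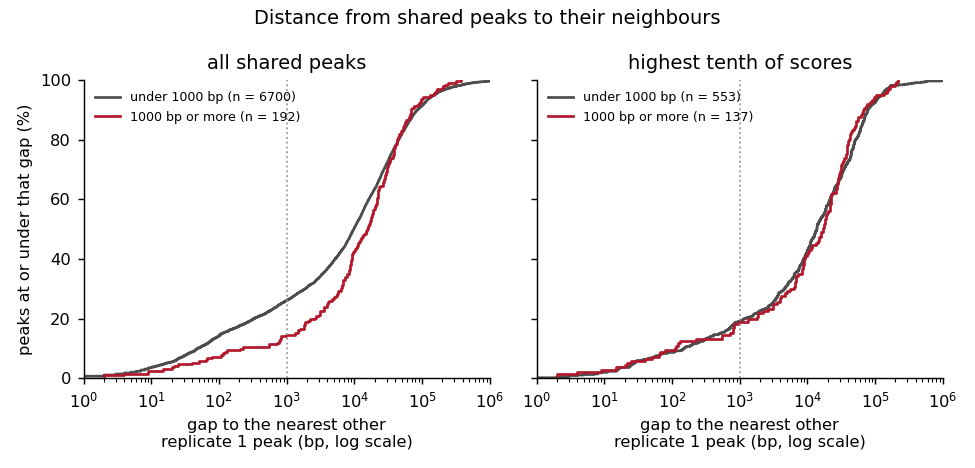
Percentage of shared peaks (y axis) whose nearest other replicate 1 peak lies at or under a given gap in bp (x axis, log scale), for members (red) and narrow shared peaks (grey); the dotted line marks 1 kb. Over all shared peaks (left) the red line is lower at 1 kb, 14.6% against 26.1%, and in the highest part by score (right) the lines meet, 18.98% against 19.2%.

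Members seldom lay near each other. Neighbouring members were under 100 kb apart in 7 pairs, and under 10 kb in 2. The closest pair was on chromosome 17, where chr17:27691948-27693828 and chr17:27702080-27703147, both named above, were 8.25 kb apart at replicate 1 percentiles of 99.94 and 99.86. The other close pair, chr13:23492533-23493987 and chr13:23503373-23505062, was 9.39 kb apart at percentiles of 69.7 and 90.1. It was singled out after its values were seen. The first of that pair had a lower replicate 1 rank than all members but 1, and both ranked higher in replicate 2, at 81.3 and 98.8.

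All 17 chromosomes used held members. They made up 2.79% (2.41 to 3.20%) of the shared peaks. Chromosome 9 had the highest share, 21 of 455 (4.62%, 2.88 to 6.97%), followed by chromosome 17 with 20 of 456 (4.39%, 2.70 to 6.69%) and chromosome 7 from 36 Mb with 18 of 440 (4.09%, 2.44 to 6.39%). Chromosome 14 had the lowest, 4 of 289 (1.38%, 0.378 to 3.51%). The interval of chromosome 9 lay just above the overall share. The other 16 included it, and the highest and lowest chromosomes had intervals that overlapped.

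**Figure D5:**
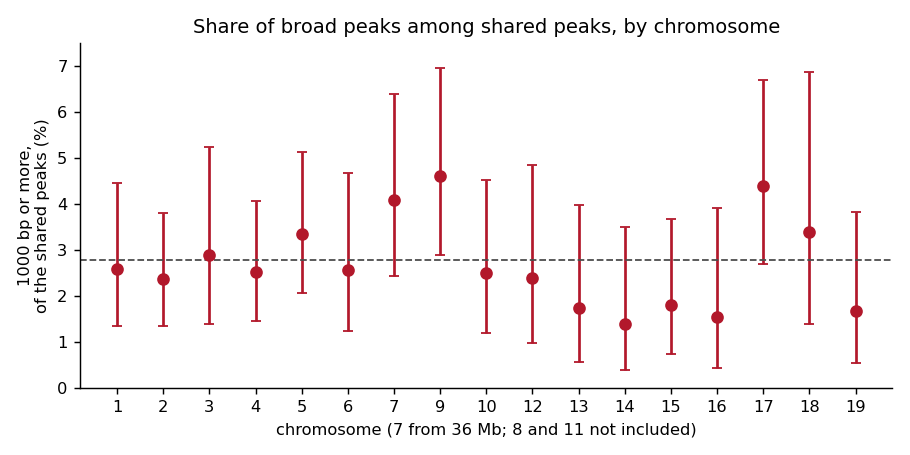
Members as a percentage of the shared peaks (y axis) on each chromosome used (x axis). Points are percentages with exact 95% binomial intervals and the dashed line is the overall 2.79%; chromosome 9 is highest at 4.62% and chromosome 14 lowest at 1.38%.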

How the data were processed

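HTATSF1 ChIP-seq was compared between 2 libraries, grouped and numbered by their titles. Bowtie, bedtools and Picard 1.82, with build mm9, are named per the submitters' processing notes, without their roles. The authors deposited 1 peak list per library with a score per peak; peak names begin with MACS, a caller; its settings are not stated in the labels or files. The other deposited values are start and end positions. The scale of the score is not stated, so it entered as a percentile of its full list.

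Width is the deposited end minus the deposited start, read as counting from 0; printed positions count from 1 and include both ends. Peaks were shared when they overlapped by 1 bp. Gaps run edge to edge. Percentages have exact (Clopper-Pearson) 95% binomial intervals, medians order-statistic intervals, and differences the 2 combined. The regions named are the 12 with the highest mean percentile, the 5 widest, the 5 spanning the most replicate 2 peaks, the 3 lowest in replicate 2, and 3 on each side of the width limit. The members and rules were chosen with earlier results of these data known. Overlap and gap code was checked on made-up lists. The planned gene lists (ribosomal proteins, ribosome assembly, splicing and others) were not run without an mm9 annotation; the reference tables at hand are of another build. Analysis used Python 3.11.15 with pandas 2.3.3, scipy 1.17.1, matplotlib 3.10.9 and numpy 2.4.6.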

Additional observations from a re-analysis of the deposited data

How the results depend on the processing

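The number of members depends on the width limit: 935 at 750 bp and 12 at 1500 bp. It was 911 after joining replicate 1 peaks under 1 kb apart, 397 on all autosomes, and 16 for replicate 2 peaks of 1000 bp or more that overlap replicate 1. Leaving out a replicate gave 16 to 215 broad peaks. The excess of broad over narrow peaks in sharing, 45.1 percentage points, was 39.2 at 750 bp, 49.6 when 50% of a replicate 2 peak had to be covered, 49.5 when its midpoint had to lie inside, and 5.06 within the upper 10% of replicate 1 scores. The excess in spanning 2 or more replicate 2 peaks, 26.1 points, was 14.1 at 750 bp, 43.2 at 1500 bp and 15.1 with the upper 50% of replicate 2 scores. It was 0 once replicate 2 peaks under 1 kb apart were joined, since partners in a member lie closer than that. The difference in replicate 2 percentile, 21.2, was 32.0 at 1500 bp. By part of replicate 1 score it was -3.64 in part 10, 3.66 in part 9, 4.62 in part 8, 20.99 in part 7 (4 members), 15.9 in part 6 (2 members) and -6.14 in part 5 (1 member). The difference in partner width, 130 bp, was 238 bp for summed partners and 6 bp in the highest part by score. That in neighbours under 1 kb, -11.5 points, was -0.190 there. Comparisons of partner width, spanning and neighbours in that part, and of neighbours below it, were added after the data were seen. For the values that moved, the cause was not tested beyond the settings' own construction. Of 35 alternative values, 12 stayed within 1.5 times the count or the interval of the main value. They include the 215 broad peaks without replicate 2 and the 20.99 in part 7. Gene alternatives were not run. No paired analysis was possible because no values of the same-numbered inputs were used. The unknown depth limits how far a missing or split replicate 2 peak can be read.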
